A study of Mus musculus with 12 samples.

Results

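The urea cycle turns the ammonia set free when amino acids are broken down into urea, and 10 genes of this pathway and of the amino acid breakdown that feeds it were followed in 12 mouse RNA sequencing libraries. They were taken by their symbols from a table of 22276 gene symbols, each had 1 row, and they fall into 6 urea cycle genes and 4 aminotransferase genes. The organs were liver, quadriceps muscle and white (WAT) and brown (BAT) adipose tissue, taken from male C57BL/6J mice aged 17 wk in 3 groups. Mice on a normal chow diet received the vehicle (NCD-veh), and mice on a high fat diet (HFD) received either the vehicle (HFD-veh) or narciclasine (HFD-ncls), a plant alkaloid. The HFD began at 8 wk of age, and narciclasine (ncls, 1 mg/kg) or the vehicle, a hydroxypropyl cyclodextrin solution, was gavaged each week from 10 wk of age over 7 wk. All groups were thus gavaged males of the same strain and age, and a chow group with ncls was not analysed here.

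Levels are given as FPKM, the number of sequenced fragments per kilobase of a gene's transcript, scaled to the fragments mapped, so levels of different genes can be set side by side. Where 3 values of an organ follow each other, they stand in the order NCD-veh, HFD-veh, HFD-ncls. Each organ and group had 1 library, and the number of mice behind a library is not stated in the sources used here. With no replicates there is no spread between mice, no error and no test, and every difference below describes these libraries only. Whether neighbours in an order of levels differ beyond such a spread cannot be said. Differences between libraries are log2 ratios of FPKM + 0.1, computed for genes with at least 1 FPKM in at least 1 of the libraries compared, with 2-fold as the threshold. Steps in the lowest FPKM values put the depth at about 18770400 to 26561100 fragments per library. At that depth the least abundant of the 10 genes in liver, Nags, rested on about 1183 fragments in HFD-veh liver, whereas several values outside liver rested on 1 or a few fragments.

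In mammals, the complete urea cycle runs in liver cells, above all in those around the portal vein, with its opening steps inside the mitochondrion and the rest in the cytosol. Aminotransferases pass the amino group of an amino acid to a keto acid, which supplies the glutamate and the aspartate whose nitrogen ends up in urea and leaves the carbon skeletons for glucose synthesis or oxidation. Many of these genes are known to respond to protein intake, fasting, glucagon and glucocorticoids.

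Positions below are those of the gene models on mm9, the genome build of the deposited table. Nags (chr11:102006827-102010791, plus strand) makes N-acetylglutamate, the obligatory activator of carbamoyl phosphate synthetase. Cps1 (chr1:67169600-67277833, plus strand) encodes that synthetase, which fixes ammonia in the mitochondrion. Otc (chrX:9829431-9898150, plus strand) joins carbamoyl phosphate to ornithine, which gives citrulline. Ass1 (chr2:31325727-31376192, plus strand) condenses citrulline with aspartate, and Asl (chr5:130487128-130501002, minus strand) splits the product into arginine and fumarate. Arg1 (chr10:24635014-24647276, minus strand) releases urea from arginine and returns ornithine. Among the aminotransferases, Tat (chr8:112514337-112523703, plus strand) opens the breakdown of tyrosine. Gpt (chr15:76527163-76530104, plus strand) and Gpt2 (chr8:88016475-88051459, plus strand) encode the cytosolic and the mitochondrial alanine aminotransferase. Got1 (chr19:43574242-43599095, minus strand) encodes the cytosolic aspartate aminotransferase, a partner in the malate-aspartate shuttle. Nags is overlapped by a gene model on the opposite strand, Gm11586, and the strand setting of the libraries is not given in the sources used here, so reads of the pair could not be told apart.

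Marker genes matched the labelled organs, but several libraries also held transcripts of another organ. Of 15 hepatocyte markers, Alb has no value in liver and Trf, the transferrin gene, reached 485 to 1204 FPKM in WAT, so sums are given over the other 13. These summed to between 47584 and 58140 FPKM in liver and to 0.807 to 5.36 FPKM in BAT and in the NCD-veh and HFD-ncls muscle libraries, in each of which 2 to 7 of them were listed at 0. In HFD-veh muscle all 13 were at or above 1 FPKM and summed to 301 FPKM. In WAT their sum was 1.402, 30.8 and 113 FPKM. Summed over 13 fast-muscle markers, BAT held 2567, 1043 and 196 FPKM and liver held 5.54, 82.2 and 5.90 FPKM. Muscle itself held 122730 to 129424 FPKM of these markers. The foreign share was taken away for the ratios and levels named below as such, and the other values are as deposited.

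All 10 genes were abundant in every liver library, and their levels stayed within 2-fold under diet and ncls. No gene passed 2-fold in any liver comparison. The highest liver level of a gene was between 1.12 times (Arg1) and 1.76 times (Tat) its lowest. Summed over the 6 urea cycle genes, liver held 2581, 2508 and 2924 FPKM. The plot of liver levels gives each library.

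**Figure D1:**
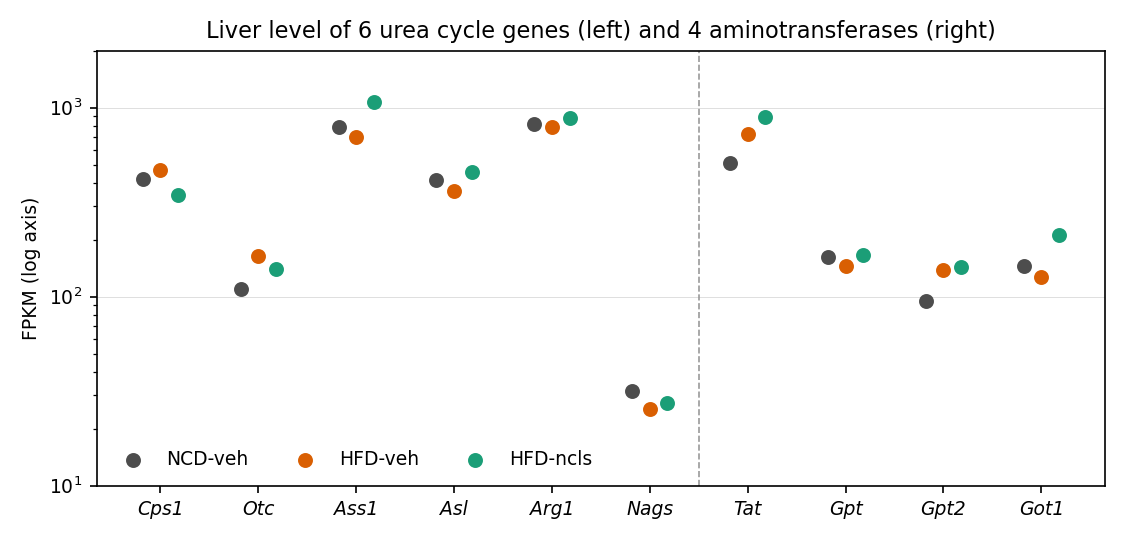
FPKM on a log axis in the NCD-veh, HFD-veh and HFD-ncls liver libraries, 1 point per library, for the 6 urea cycle genes (left of the dashed line) and the 4 aminotransferases. The 3 points of Arg1 lie between 788 and 883 FPKM, those of Tat run from 508 to 895, and Nags lies far below the other genes at 25.5 to 31.6.

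Within the mitochondrial steps, Cps1 was at 417 FPKM in NCD-veh liver, at 470 in HFD-veh liver and at 347 in HFD-ncls liver. Otc was at 110, 165 and 139 FPKM in the same order. Both were thus highest in HFD-veh liver, and with ncls Cps1 lay below its NCD-veh level while Otc remained above it. Nags, the source of the activator of Cps1, was at 31.6, 25.5 and 27.2 FPKM, highest in NCD-veh. In the cytosolic steps, Ass1 was at 790, 696 and 1070 FPKM. Asl was at 414, 363 and 458 FPKM. Arg1 was at 818, 788 and 883 FPKM. These 3 genes shared an order, with HFD-veh lowest and HFD-ncls highest.

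Among the aminotransferases, Tat was at 508, 726 and 895 FPKM in liver. Gpt2 was at 95.2, 138 and 144 FPKM. Both stood in the order NCD-veh, HFD-veh, HFD-ncls. Gpt was at 161, 145 and 166 FPKM. Got1 was at 146, 128 and 211 FPKM. These last genes were lowest in HFD-veh liver and highest in HFD-ncls, as were Ass1, Asl and Arg1.

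The effect of the diet was read from HFD-veh against NCD-veh liver. None of the 10 genes passed 2-fold, where 5.12% of 10016 genes did so in either direction. Past the smaller threshold of 1.4-fold, Otc (log2 ratio 0.59), Gpt2 (0.54) and Tat (0.52) were higher in HFD-veh and none was lower, against 13.3% of all genes higher and 10.5% lower. The other 7 ratios lay between -0.31 (Nags) and 0.17 (Cps1). The median ratio was -0.10 over the 10 genes and 0.04 over all genes, and it was -0.12 over the 6 urea cycle genes and 0.18 over the 4 aminotransferases.

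The effect of ncls on the HFD was read from HFD-ncls against HFD-veh liver, which shares the HFD-veh library with the diet comparison. Again none of the 10 passed 2-fold, where 2.31% of 9956 genes did. Past 1.4-fold, Got1 (log2 ratio 0.73, a fold of 1.66) and Ass1 (0.62, a fold of 1.54) were higher in HFD-ncls and none was lower, against 6.88% of all genes higher and 8.07% lower. The next largest ratios were 0.34 for Asl and 0.30 for Tat. Cps1 (-0.44) and Otc (-0.24) were the members with ratios below 0. All 4 aminotransferases had ratios above 0, with a median of 0.25. So did 4 of the 6 urea cycle genes, with a median of 0.13. The median of all genes was 0.02, so among all genes ratios above 0 were at least as frequent as ratios below 0. The counts of members above 0 are therefore not read as particular to these genes.

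Between HFD-ncls and NCD-veh liver, which differ in both diet and ncls, none passed 2-fold, where 5.20% of 9961 genes did. Past 1.4-fold, Tat (log2 ratio 0.82), Gpt2 (0.60) and Got1 (0.53) were higher in HFD-ncls and none was lower, against 11.5% of all genes higher and 9.46% lower. The lowest ratios were -0.27 for Cps1 and -0.22 for Nags. Gpt, at 0.04, had the ratio nearest to 0, and it turned to -0.01 when the libraries were rescaled by their median ratio. The medians were 0.57 over the aminotransferases and 0.13 over the urea cycle genes, with 0.05 over all genes. In bulk liver, fewer cells of a type and less RNA per cell cannot be told apart. The muscle transcripts in HFD-veh liver amounted to a median of 0.0593% of HFD-veh muscle over 13 markers, a share of muscle that holds 0.0511 FPKM of Got1 and 0.0401 FPKM of Gpt2.

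The level of Ass1 is uncertain, because the mouse genome holds a near-identical copy of it. A blastn search of the 10 transcripts against mm9 found Gm5424, annotated as a pseudogene, at chr10:61533764-61535357, which matches 1596 of the 1696 bases of the Ass1 transcript at 99.2% identity. Reads of such a pair can be split or shared between both, and how the authors' programs treated them is not given in the sources used here. Gm5424 is listed at 1230, 1144 and 1694 FPKM in liver, above Ass1 in each. Summed, both amounted to 2020, 1840 and 2764 FPKM, and the log2 ratio of the sum was 0.59 for HFD-ncls against HFD-veh liver, close to the 0.62 of Ass1 alone. Shared reads would move both symbols together, so this closeness does not tell which of them differed. Gpt2 also has a copy outside its locus, at chr1:163676457-163677775, where 1328 of its 3639 bases match at 92.2% and no gene is annotated. For the other 8 genes no match of at least 500 bases at 90% identity lay outside their own locus.

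The wider amino acid network in liver was read from lists of 114 genes outside these 10, of which 112 are in the table. Past 2-fold stood 5% of those tested for HFD-veh against NCD-veh, 1.94% for HFD-ncls against HFD-veh and 3.88% for HFD-ncls against NCD-veh, beside 5.12%, 2.31% and 5.20% of all genes. The 3 genes past 2-fold lower on the diet act on glycine, histidine and cysteine. Gldc, the decarboxylase of the glycine cleavage system, was at 46.9, 18.0 and 23.6 FPKM in liver. Hal, which opens histidine breakdown, was at 158, 66.9 and 66.7 FPKM. Csad, which leads from cysteine to taurine, was at 96.9, 34.0 and 70.6 FPKM, and so passed 2-fold downward with the diet (log2 ratio -1.51) and upward with ncls (1.05). Gldc and Hal thus stayed low with ncls, whereas Csad lay nearer to its NCD-veh level.

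Other lists hold genes that supply or use the cycle's intermediates. None of the 10 tested genes for ammonia, glutamate and carrier supply of the cycle passed 2-fold in any comparison, with medians of 0.28 on the diet and 0.02 with ncls. Azin1, an inhibitor of antizyme in polyamine control, was at 6.01, 16.4 and 10.8 FPKM. It was the gene past 2-fold in the list for arginine use, where it stands as a regulator and not as an enzyme that uses arginine or ornithine. Of the amino acid carriers, Slc43a1 was at 1.91, 3.96 and 4.75 FPKM and Slc1a5 at 0.918, 0.479 and 1.36 FPKM. Their levels were low beside those of the cycle enzymes. None of the 15 genes for the breakdown of aromatic amino acids, the pathway that Tat belongs to, passed 2-fold, and their medians were 0.31 on the diet and 0.08 with ncls. The 6 malate-aspartate shuttle genes other than Got1 had medians of 0.37 and 0.14, and the 14 regulators medians of 0.01 and 0.14, with none past 2-fold in either list. Medians on the diet and with ncls were 0.47 and 0.09 for the carriers, 0.47 and -0.25 for arginine use, -0.16 and -0.06 for the sulfur and methyl list that holds Csad, and 0.01 and 0.08 for the list that holds Gldc and Hal.

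Urea cycle enzymes are known for their periportal place in the liver lobule, so lists of genes with a known zone were read beside them. The 10 periportal genes in the table, members left out, had a median log2 ratio of -0.31 for HFD-veh against NCD-veh, 0.09 for HFD-ncls against HFD-veh and -0.01 for HFD-ncls against NCD-veh. The 12 pericentral genes had medians of 0.19, -0.21 and -0.09. Past 2-fold were Hal, which also stands in this list, in both comparisons with NCD-veh, and 2 more genes in HFD-ncls against NCD-veh. G6pc, the glucose-6-phosphatase of glucose release, was at 161, 295 and 323 FPKM, and Ctsc, a lysosomal protease, at 39.0, 20.7 and 15.7 FPKM. Sds, the serine dehydratase, was singled out after its values were seen because it lay just inside the threshold with ncls (0.99), at 152, 118 and 235 FPKM. The plot of liver ratios by list shows the spread of each.

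**Figure D2:**
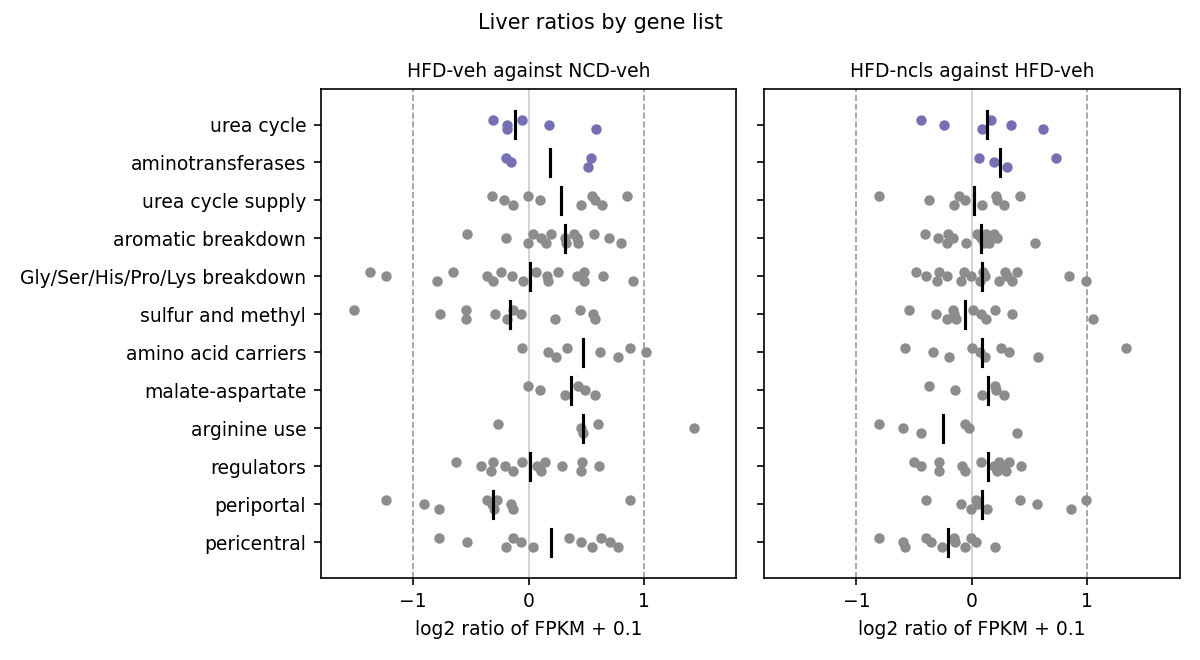
Log2 ratios of FPKM + 0.1 in liver for each gene of 12 lists, with HFD-veh against NCD-veh on the left and HFD-ncls against HFD-veh on the right. Points are genes with at least 1 FPKM in either library, black bars are list medians and dashed lines mark 2-fold. The urea cycle genes and aminotransferases (purple) all lie inside the dashed lines, and the points beyond -1 on the left are Gldc, Hal (in 2 lists) and Csad.

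Outside liver the 10 genes parted into those that were close to absent and those with a level of their own. Cps1, Otc, Nags and Tat were listed at 0 in all 3 BAT libraries, and over the 9 non-liver libraries Cps1 and Otc were listed at 0 in 5, Nags in 7 and Tat in 4. Without HFD-veh muscle, the highest non-liver level was 0.825 FPKM for Cps1, 0.648 for Otc, 0.0518 for Nags and 3.28 for Tat, each in HFD-ncls WAT, and these amount to 0.238%, 0.590%, 0.203% and 0.646% of the lowest liver library. A value such as the 0.0518 FPKM of Nags corresponds to about 1.97 fragments.

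Ass1, Asl and Arg1 were low outside liver but listed above 0 in all 9 libraries. Asl was the most even of them, at 11.4, 8.16 and 10.5 FPKM in WAT, 7.43, 4.53 and 6.39 in BAT, and 1.97, 5.10 and 1.72 in muscle. Ass1 was at 1.03, 5.43 and 7.98 FPKM in WAT, 0.749, 1.36 and 1.34 in BAT, and 0.193, 6.80 and 0.449 in muscle. Arg1 was at 1.58, 2.62 and 5.79 FPKM in WAT, 0.0551, 0.0863 and 0.202 in BAT, and 0.0578, 5.92 and 0.0559 in muscle. For Ass1 and Arg1, the HFD-veh library thus stood far above the other muscle libraries, and the HFD-ncls library was the highest in WAT. Arg2, the mitochondrial arginase, was at or below 0.111 FPKM in all 12 libraries.

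**Figure D3:**
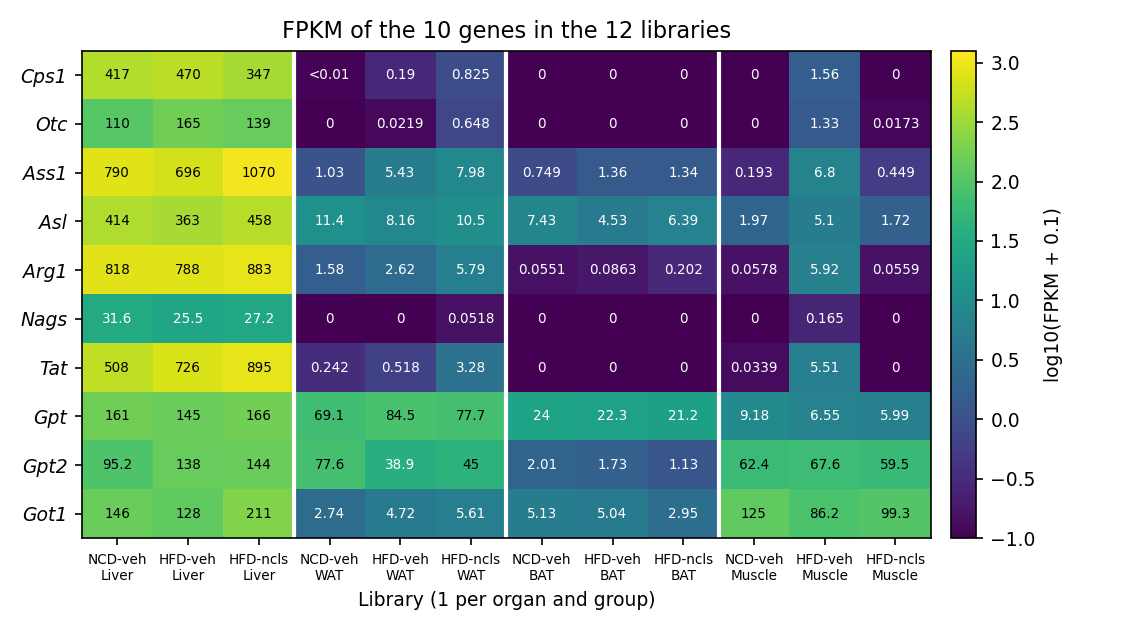
FPKM of the 10 genes (rows) in the 12 libraries (columns, by organ), with the value printed in each cell and the colour showing log10(FPKM + 0.1). Liver is high in every row. Gpt, Gpt2 and Got1 keep levels above 50 FPKM in WAT or muscle, and Cps1, Otc, Nags and Tat are at 0 throughout BAT.

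Gpt, Gpt2 and Got1 were widely expressed outside liver, in organs that differed between them. Gpt was at 69.1, 84.5 and 77.7 FPKM in WAT, 24.0, 22.3 and 21.2 in BAT, and 9.18, 6.55 and 5.99 in muscle. Gpt2 was at 77.6, 38.9 and 45.0 FPKM in WAT, 2.01, 1.73 and 1.13 in BAT, and 62.4, 67.6 and 59.5 in muscle. Got1 was at 2.74, 4.72 and 5.61 FPKM in WAT, 5.13, 5.04 and 2.95 in BAT, and 125, 86.2 and 99.3 in muscle. Outside liver, WAT thus led for Gpt and muscle for Got1, while Gpt2 was highest in WAT in NCD-veh and in muscle in both HFD groups, and low in BAT. The highest non-liver level amounted to 58.1% of the lowest liver library for Gpt, 81.5% for Gpt2 and 98.0% for Got1.

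The cytosolic and mitochondrial forms of each aminotransferase were set against each other within a library, a comparison chosen with these values known. Of the summed FPKM of Gpt and Gpt2, the mitochondrial Gpt2 made up 87.2%, 91.2% and 90.9% in muscle and 7.74%, 7.20% and 5.08% in BAT. In liver its share was 37.1%, 48.7% and 46.5%. In WAT it was 52.9%, 31.5% and 36.7%. The share was thus higher on the HFD in liver and lower on the HFD in WAT, in both HFD libraries of each organ, and the ranges of muscle and BAT lay apart from all others. Of the summed FPKM of Got1 and Got2, the mitochondrial aspartate aminotransferase, Got1 made up 44.3%, 39.3% and 46.9% in liver and 43.3%, 42.2% and 41.6% in muscle. It made up 12.01%, 22.3% and 22.9% in WAT and 26.6%, 32.8% and 28.1% in BAT. Liver and muscle overlapped in this share, and every WAT and BAT library lay below both. With the median muscle share in BAT taken away, as described below, the BAT shares were 3.61%, 5.19% and 4.75% for Gpt2. For Got1 they were 20.4%, 31.7% and 27.7%. At that median share the order of the BAT libraries changed for Gpt2.

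**Figure D4:**
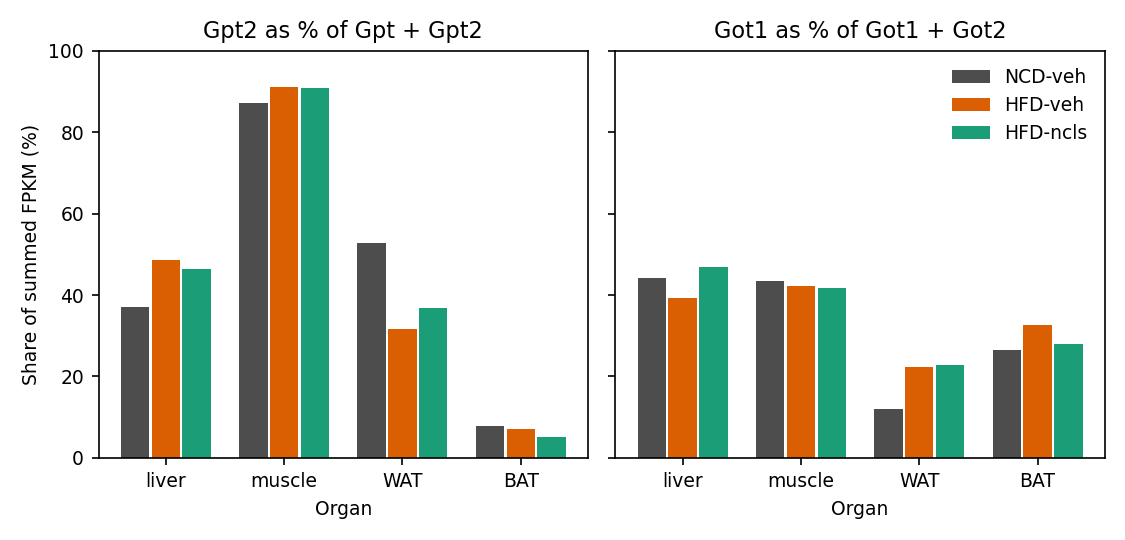
Share of Gpt2 in the summed FPKM of Gpt and Gpt2 (left) and of Got1 in that of Got1 and Got2 (right), in percent, with 1 bar per library. Gpt2 makes up 87.2% to 91.2% in muscle and 5.08% to 7.74% in BAT, and Got1 makes up 39.3% to 46.9% in liver and muscle.

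The start regions of 4 of the genes are shown as examples. Otc and Tat were at or near 0 in most libraries outside liver, and Gpt2 and Got1 were high in muscle as well. Nags, which was lower than Tat outside liver, is not shown, and its CG count is given below. The sequences come from RefSeq on GRCm38.p6, run from 250 bases before to 50 bases after the start of the gene, and have each CG dinucleotide in capitals.
Otc, chrX:10252055-10252354, plus strand: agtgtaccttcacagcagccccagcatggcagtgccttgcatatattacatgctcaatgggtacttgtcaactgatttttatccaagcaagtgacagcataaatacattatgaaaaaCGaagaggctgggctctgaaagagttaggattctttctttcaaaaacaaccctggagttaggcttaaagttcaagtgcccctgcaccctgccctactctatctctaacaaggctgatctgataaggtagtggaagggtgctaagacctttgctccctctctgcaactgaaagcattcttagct
Tat, chr8:109990186-109990485, plus strand: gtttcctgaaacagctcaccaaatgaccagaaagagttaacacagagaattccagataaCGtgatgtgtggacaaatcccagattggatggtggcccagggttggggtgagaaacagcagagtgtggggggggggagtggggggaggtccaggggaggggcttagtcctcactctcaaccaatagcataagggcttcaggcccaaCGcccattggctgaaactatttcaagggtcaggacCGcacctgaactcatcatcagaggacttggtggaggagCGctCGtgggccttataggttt
Gpt2, chr8:85492326-85492625, plus strand: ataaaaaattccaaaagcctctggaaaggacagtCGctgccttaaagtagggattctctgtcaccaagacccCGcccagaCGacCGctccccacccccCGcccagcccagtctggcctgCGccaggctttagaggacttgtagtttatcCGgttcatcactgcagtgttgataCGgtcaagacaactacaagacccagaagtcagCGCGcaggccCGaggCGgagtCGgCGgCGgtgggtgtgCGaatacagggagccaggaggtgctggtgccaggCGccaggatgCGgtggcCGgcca
Got1, chr19:43524556-43524855, minus strand: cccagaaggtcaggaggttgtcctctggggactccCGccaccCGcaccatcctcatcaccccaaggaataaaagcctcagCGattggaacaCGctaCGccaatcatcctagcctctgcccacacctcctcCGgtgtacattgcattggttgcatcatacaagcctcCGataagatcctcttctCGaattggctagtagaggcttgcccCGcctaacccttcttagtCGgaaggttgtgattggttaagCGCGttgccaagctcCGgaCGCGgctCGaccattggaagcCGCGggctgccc
The CG count was 1 for Otc and 5 for Tat, and 19 for Gpt2 and 18 for Got1, where the median of 32851 promoters in the table was 7. Nags and Ass1, the other genes found there, had 14 and 27. Among these 6, the counts of Otc, Tat and Nags, which were at or near 0 in most libraries outside liver, lay below those of Got1, Gpt2 and Ass1. Ass1, with the highest count, was itself low outside liver, at most 7.98 FPKM or 1.15% of its lowest liver library. The split by count was thus not a split by level outside liver. CCAAT, searched on both strands, matched 3 times for Tat, 6 times for Got1 and not for the other 4, and 37.4% of all promoters hold it. GGGCGG, which contains a CG and was searched in the same way, matched 1 time for Ass1 and 2 times each for Nags and Gpt2, and 35.7% of all promoters hold it. A match describes the letters only, and no binding was measured here. Cps1, Asl, Arg1 and Gpt were not among the matched promoters.

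In muscle, the HFD-veh library held liver transcripts, and the urea cycle genes there moved with them. Of the 9 genes that passed the filter, 6 were past 2-fold higher in HFD-veh than in NCD-veh muscle, where 3.14% of all genes were higher and 4.11% passed in either direction. Cps1, Otc, Ass1, Arg1 and Tat passed the filter only through the HFD-veh library, so their difference was bound to be large. Cps1 was at 1.56 FPKM in HFD-veh muscle and listed at 0 in NCD-veh and HFD-ncls muscle. Otc was at 1.33 FPKM, against 0 and 0.0173. Tat was at 5.51 FPKM, against 0.0339 and 0. Against NCD-veh muscle the log2 ratio was 5.25 for Arg1, whose NCD-veh value rests on about 2.16 fragments, 4.56 for Ass1 and 1.33 for Asl, which has a level in all muscle libraries. Nags, at 0.165 FPKM or about 8.89 fragments, did not reach the filter.

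The same 6 genes lay more than 2-fold below HFD-veh muscle in the HFD-ncls library, where 2.53% of all genes were lower and 3.80% passed in either direction, and both comparisons share the HFD-veh library. Between HFD-ncls and NCD-veh muscle none of the 4 genes tested passed 2-fold, where 1.21% of all genes did, and 1 gene, Gpt, passed 1.4-fold, where 8.88% did. Gpt2, Gpt and Got1 have a level of their own in muscle and stayed within 2-fold throughout. Got1 was lower in HFD-veh than in NCD-veh muscle by a log2 ratio of -0.54, and Gpt by -0.48.

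The excess in HFD-veh muscle over the mean of the other muscle libraries was expressed as a percentage of HFD-veh liver, gene by gene. It was 0.331% for Cps1, 0.799% for Otc, 0.931% for Ass1, 0.898% for Asl, 0.744% for Arg1, 0.646% for Nags and 0.757% for Tat. Over 14 hepatocyte markers it ran from 0.307% (Apob) to 0.736% (Apoc3), with a median of 0.580%. Against HFD-veh liver, Cps1 and Nags thus lay within the range of the markers and the other 5 above it. The size of the excess depends on that reference. Over the 6 genes under 1 FPKM in the other muscle libraries, its median was 0.750% of HFD-veh liver. It was 0.768% of NCD-veh liver and 0.610% of HFD-ncls liver. Whether single genes lie above the marker range with those references is not given here. The liver share used for subtraction is the median level of the markers, 0.582% of HFD-veh liver, with the other muscle libraries not subtracted. With it taken away, HFD-veh muscle kept 2.75 FPKM of Ass1, 2.99 of Asl, 1.33 of Arg1, 1.28 of Tat and 0.366 of Otc, and Cps1 was at 0. With the highest marker excess (0.736%) taken away instead, HFD-veh muscle kept 1.68 FPKM of Ass1, 2.43 of Asl, 0.119 of Arg1, 0.171 of Tat and 0.113 of Otc. The muscle markers of that library, at 128185 FPKM, were between those of the other muscle libraries. How the liver transcripts came into this library was not tested.

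**Figure D5:**
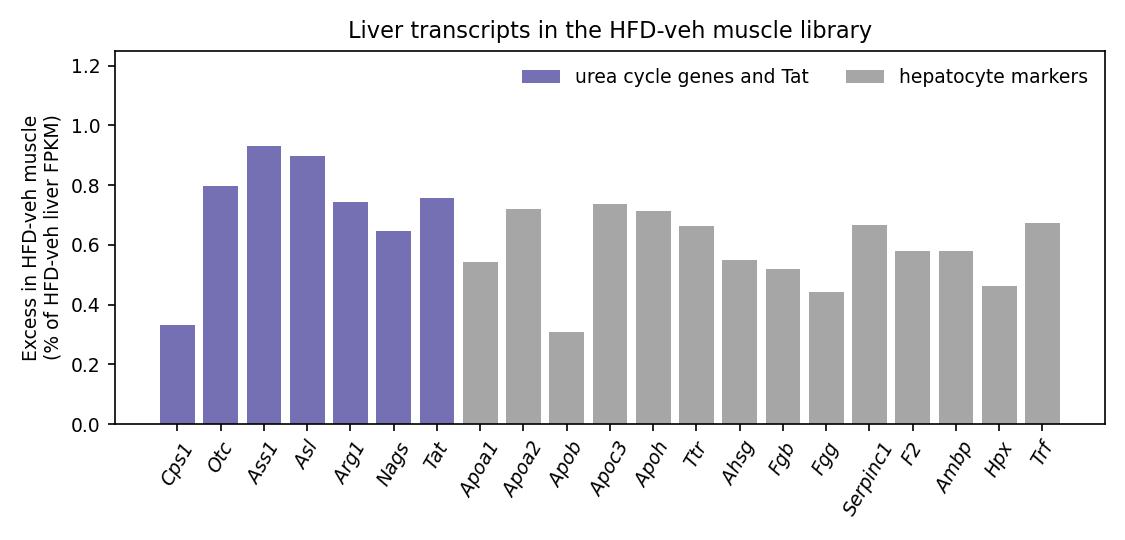
Excess FPKM in HFD-veh muscle over the mean of the NCD-veh and HFD-ncls muscle libraries, in percent of HFD-veh liver FPKM, for the 6 urea cycle genes and Tat (purple) and for 14 hepatocyte markers (grey). The markers run from 0.307% to 0.736%, and 5 of the 7 purple bars stand above that range.

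In WAT, Ass1, Arg1 and Tat passed 2-fold in at least 1 comparison each, as did Got1, and hepatocyte markers were higher in the same libraries. Of the 6 genes that passed the filter for HFD-veh against NCD-veh WAT, Ass1 passed 2-fold (log2 ratio 2.29), where 9.11% of all genes did. Gpt2 was lower in HFD-veh, with a ratio of -0.99 that fell just short, and 4 genes passed 1.4-fold, where 29.3% of all genes did. For HFD-ncls against HFD-veh WAT, Tat (2.45) and Arg1 (1.12) of 7 genes passed, where 1.70% of all genes did. For HFD-ncls against NCD-veh WAT, Tat (3.31), Ass1 (2.84), Arg1 (1.81) and Got1 (1.01) of 7 passed, where 9.59% did. Got1 fell short of 2-fold with a pseudocount of 1 (0.82), after rescaling (0.94) and without the liver share (0.88). Tat passed the filter only through HFD-ncls WAT.

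The hepatocyte markers had a median level of 0.00107% of the same-group liver in NCD-veh WAT, of 0.0668% in the HFD-veh library and of 0.222% in the HFD-ncls library. Set against liver in the same way, Cps1 was at 0.00233%, 0.0404% and 0.238%, of the same order as the marker median in each library. Tat was at 0.0476%, 0.0714% and 0.367%. Arg1 was at 0.193%, 0.332% and 0.656%, and Ass1 at 0.130%, 0.780% and 0.746%, both above the marker median in all 3 libraries. The ratios for HFD-ncls against NCD-veh were 2.35 for Ass1, 1.23 for Arg1 and 2.05 for Tat without that liver share. With it taken away, Ass1 was at 1.02, 4.96 and 5.60 FPKM in WAT, Arg1 at 1.57, 2.09 and 3.83, and Tat at 0.236, 0.0331 and 1.29. The order of the libraries was thus the same for Ass1 and Arg1. For HFD-ncls against HFD-veh WAT the ratio of Arg1 came to 0.84, within 2-fold, and that of Tat to 3.38. The Tat ratio rests on the 0.0331 FPKM that the subtraction left in HFD-veh WAT. The upper quartile of the markers there, 0.0850%, was above the 0.0714% of Tat, so a share of that size would leave no Tat there. Arg1 is also known from macrophages, and 10 macrophage markers summed to 1555, 1817 and 1938 FPKM in the same libraries, a sum carried mostly by Retnla and Lyz2. Of these 10 markers, 9 were higher in HFD-veh than in NCD-veh WAT and 1, Cd163, was lower, and from HFD-veh to HFD-ncls WAT 7 were higher and 3 lower. Over the same libraries, 8 white adipocyte markers summed to 28581, 20113 and 18492 FPKM and 5 endothelial markers to 157, 252 and 260. The part of any of these cell types in the differences of Ass1, Arg1, Tat and Gpt2 was not tested.

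In BAT none of the 10 genes passed 2-fold, with 5 tested in each comparison, where 4.29% of all genes passed for HFD-veh against NCD-veh, 1.96% for HFD-ncls against HFD-veh and 4.10% for HFD-ncls against NCD-veh. Ass1 had log2 ratios of 0.78 on the diet and 0.76 for HFD-ncls against NCD-veh, and Got1 had -0.75 for HFD-ncls against HFD-veh and -0.78 for HFD-ncls against NCD-veh. Gpt2 had ratios of -0.56 and -0.78 in the latter comparisons. At 1.4-fold, 2, 3 and 3 of the genes passed in the 3 comparisons, where 17.6%, 8.53% and 15.2% of all genes did. Got1 and Gpt2 are muscle-rich genes, and the muscle markers in BAT had medians of 1.798%, 0.755% and 0.129% of the same-group muscle. Single markers ran from 1.11% to 3.23% in NCD-veh BAT. They ran from 0.439% to 1.11% in the HFD-veh library and from 0.0706% to 0.586% in the HFD-ncls library. The median shares of muscle hold 2.25, 0.651 and 0.128 FPKM of Got1 and 1.12, 0.510 and 0.0770 FPKM of Gpt2. Without them Got1 was at 2.88, 4.39 and 2.82 FPKM in BAT and Gpt2 at 0.893, 1.22 and 1.06 FPKM. At these median shares the diet ratio of Got1 turned from -0.02 to 0.59 and that of Gpt2 from -0.21 to 0.41. Ratios at the lowest or highest marker share were not computed. For HFD-ncls against HFD-veh the ratios went from -0.75 to -0.62 for Got1 and from -0.56 to -0.18 for Gpt2. For HFD-ncls against NCD-veh they went from -0.78 to -0.03 for Got1 and from -0.78 to 0.22 for Gpt2.

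Genes with the most similar profile were sought for each of the 10 by Pearson r of log2(FPKM + 0.1) over the 12 libraries, among 13647 genes. The points share organs and libraries, and for most members r reflects little more than liver against the rest. Between 317 and 528 genes reached an r over 0.95 with each of Cps1, Otc, Ass1, Asl, Arg1, Nags and Tat. For Gpt, which also has a level of its own in WAT and BAT, 294 genes did so. Only 26 genes reached that r for Gpt2 and 22 for Got1. The genes nearest to Got1 were Abcb4 (r = 0.990), its mitochondrial counterpart Got2 (0.979) and Spryd4 (0.974). Nearest to Gpt2 were Rxra, a nuclear receptor (0.986), the amino acid carrier Slc16a10 (0.978) and Bccip (0.976). For Ass1 it was its copy Gm5424 (0.999), followed by the glucagon receptor Gcgr (0.989). Cps1 stood nearest to Ugt2b34, Otc to 1190003J15Rik, Nags to Pla2g12b and Asl to Pemt. Arg1 stood nearest to Serpina1a and Gpt to Prdx4. Without HFD-veh muscle, 18 of the 30 nearest genes were shared with the full set.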

How the data were processed

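RNA of 4 organs in 3 groups was sequenced, with 1 library per organ and group, and samples were grouped by their labels. The authors used TopHat 2.0.11 for alignment to mm9 and Cufflinks with RefSeq gene models for quantification, and the deposited values are FPKM. Settings for multiple alignments and strand are not given in the sources used here. No count test was applied, since FPKM are not counts and groups had 1 library each.

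Computations used Python 3.11.15 with numpy 2.4.6 and pandas 2.3.3, and figures matplotlib 3.10.9. Before log2 ratios were taken, 0.1 was added to each FPKM, and the genes compared were those of at least 1 FPKM in at least 1 of the libraries compared. Symbols without a value in a library (86 in at least 1 library) were left out there. The members and gene lists were chosen with earlier results of these data known. Named beyond the members were all list genes past 2-fold in liver and the 3 genes of highest r, of which some are not reported here. The self-test on simulated data recovered the changes and the liver share put in. Depth came from low FPKM and transcript lengths, with 72.5% to 79.8% of the values used within 0.15 of a whole fragment. The search for copies used blastn 2.17.0. Liver and muscle shares were medians over markers of the percentage of the same-group source library, times the source FPKM. Alternatives changed 1 choice at a time.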

Additional observations from a re-analysis of the deposited data

Results flagged for a closer look

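Some genes moved past 1.4-fold in opposite directions in 2 organs under the same comparison. These differences between organs were not tested, since each rests on 4 libraries with no replicates, and each value below is the difference between the log2 ratios of the organs. Not listed are Ass1, Arg1 and Tat, which passed the filter in muscle only through HFD-veh muscle. For HFD-ncls against HFD-veh their muscle ratios were -3.65, -5.27 and -5.81. In that comparison Ass1 was higher in liver (0.62), and Arg1 (1.12) and Tat (2.45) were higher in WAT.

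For HFD-veh against NCD-veh, Gpt2 was higher in liver and lower in WAT, with a difference of 1.53. Asl was higher in muscle and lower in BAT, with a difference of 2.03, and for HFD-ncls against HFD-veh it was lower in muscle and higher in BAT, with a difference of 2.003. Both values for Asl rest on the HFD-veh muscle library with its liver transcripts. Without the liver share, the muscle ratios of Asl were 0.58 and -0.77. Got1 was higher in WAT and lower in muscle on the diet, with a difference of 1.30.

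With ncls against HFD-veh, Got1 was higher in liver and lower in BAT, with a difference of 1.48. For HFD-ncls against NCD-veh, Gpt2 was higher in liver than in WAT and BAT, where it was lower, with differences of 1.38 and 1.38. Got1 was lower in BAT in that comparison and higher in WAT and liver, with differences of 1.78 and 1.31. Muscle markers in BAT also differed between the libraries, and their part in the BAT ratios of Got1 and Gpt2 was not tested. With the median muscle share taken away, those ratios for HFD-ncls against NCD-veh were -0.03 and 0.22. That of Got1 for HFD-ncls against HFD-veh was then -0.62.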

How the results depend on the processing

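Alternatives were a pseudocount of 1 or 0.01, rescaling by the median ratio, no filter or one of 5 FPKM, and a 1.4-fold threshold. Removal of the liver or muscle share was added after seeing the data. Over these, no count of liver genes past 2-fold left 0, and the largest move of a liver log2 ratio was 0.05. The sign of 1 of the 30 liver ratios turned, that of Gpt given above. Past 1.4-fold, the liver counts were 3 for the diet, 2 for ncls on the HFD and 3 for HFD-ncls against NCD-veh.

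In WAT, the count of 1 for the diet became 2 after rescaling, 2 without the filter and 4 at 1.4-fold. The WAT count of 2 for HFD-ncls against HFD-veh became 1 with a pseudocount of 1, 4 without the filter and 1 without the liver share. The gene left without the liver share was Tat, over 0.0331 FPKM in HFD-veh WAT. In BAT, 1.4-fold gave 2, 3 and 3 genes in place of 0. In muscle, removing the median liver share took the 6 genes for the diet and for ncls to 3 each. These were Ass1, Arg1 and Tat, which pass the filter only through HFD-veh muscle. With the highest marker excess taken away instead, HFD-veh muscle kept 0.119 FPKM of Arg1 and 0.171 of Tat, both under the filter. For HFD-ncls against NCD-veh muscle, 1.4-fold gave 1 gene in place of 0. Of the 30 genes of most similar pattern, 18 remained without HFD-veh muscle.

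No paired analysis was possible because each organ and group has 1 library and the labels give no replicate numbers. For the same reason no group kept a library when 1 was left out of a comparison. What limits these values is the single library behind each: at the approximate depth, levels under about 0.1 FPKM rest on a few fragments.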

Other observations

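A carrier that serves the urea cycle was read by organ, a comparison made after the values were seen. Slc25a13, the mitochondrial aspartate-glutamate carrier known from liver, was at 53.4, 79.5 and 61.4 FPKM in NCD-veh, HFD-veh, HFD-ncls liver in that order. It made up 91.2%, 94.0% and 91.2% of the summed FPKM of Slc25a13 and its relative Slc25a12 there, and at most 0.463% in muscle. In WAT its share was 11.1%, 21.0% and 28.6%, highest in the library with the most hepatocyte marker transcripts, and the part of such transcripts in that order was not tested.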
